A study of Homo sapiens and Mus musculus with 12 samples.

Results

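The keratin genes KRT7, KRT8, KRT18, KRT19, KRT20 and KRT80 were examined for binding sites of the transcription factors SPDEF and GATA6 in HPAF-II, an established human pancreatic ductal adenocarcinoma (PDA) cell line. A peak was taken as a member when any base of it lay within 30 kb of one of these 6 genes, whose hg19 positions were given to the nearest kb. This took 9 of the 2775 SPDEF peaks and 14 of the 10670 GATA6 peaks. The comparison was with the rest of the 2 keratin gene clusters, on chromosome 12 (52500 to 53400 kb) and chromosome 17 (38800 to 39800 kb), which held 2 further SPDEF and 6 further GATA6 peaks. Of all 70 kb tiles of chromosomes 1 to 22 and X, a length like that of the gene windows (65 to 84 kb), 4.68% held an SPDEF peak and 15.4% a GATA6 peak.

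The sites were mapped by CUT&RUN, in which an antibody directs a nuclease to chromatin and the released fragments are sequenced. All HPAF-II libraries came from cells carrying HA-tagged human SPDEF, grown without further treatment named in the labels. The SPDEF list belongs to 3 libraries made with an antibody against the HA tag, and the GATA6 list to 3 libraries made with an antibody against GATA6. An IgG and an H3K4me3 library of the same cells, and 4 libraries of a mouse line, FC1245, were not analysed here. The HA antibody reads the tagged protein, whose level is not given, and the GATA6 list describes cells that also carried it. The line was not checked against markers, since the lists hold no expression values. Each list gives only the start and end of a peak, with no score, no depth and no value per replicate, so no difference could be set against replicate spread and no test was run.

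Keratins are the intermediate filament proteins of epithelia, and each filament is built of type I and type II chains in equal amounts. KRT8 (type II) and KRT18 (type I) are the founding pair of simple, single-layered epithelia. KRT7 (type II) and KRT19 (type I) mark ductal epithelium, the pancreatic duct included, KRT20 (type I) marks gastric and intestinal epithelium, and KRT80 (type II) is found in many epithelia. Genes of the type II chains lie together on chromosome 12, with KRT18 as the type I gene among them, and the other type I genes lie together on chromosome 17. Many other genes of the clusters encode keratins of epidermis, other stratified epithelia and hair, or, on chromosome 17, keratin-associated proteins of hair. SPDEF is an ETS-family factor of secretory epithelia, whose family reads the core GGAA and which itself favours GGAT. GATA6 is a zinc-finger factor of endoderm whose expression is typical of classical PDA.

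RefSeq promoter sequences (250 bases before to 50 after a gene start, GRCh38.p14) were matched by symbol for 2 of the 6 genes, KRT8 and KRT20. They are shown as the promoters of the 6 genes that the table holds. Capitals mark matches to the ETS core GGAA, to GGAT, which SPDEF favours, and to 4 GATA factor sites, spelled AGATAA or TGATAA or AGATAG or TGATAG. Both strands were searched, so a match on the other strand appears as TTCC or ATCC. The KRT8 window is chr12:52926420-52926719 and the KRT20 window chr17:40885193-40885492, both on the minus strand.
KRT8: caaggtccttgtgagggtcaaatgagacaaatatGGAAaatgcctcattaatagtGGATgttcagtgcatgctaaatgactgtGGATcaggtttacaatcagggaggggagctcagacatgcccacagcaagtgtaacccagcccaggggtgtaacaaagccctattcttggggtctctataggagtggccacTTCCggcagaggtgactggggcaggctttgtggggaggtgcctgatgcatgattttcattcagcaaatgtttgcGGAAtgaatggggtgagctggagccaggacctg
KRT20: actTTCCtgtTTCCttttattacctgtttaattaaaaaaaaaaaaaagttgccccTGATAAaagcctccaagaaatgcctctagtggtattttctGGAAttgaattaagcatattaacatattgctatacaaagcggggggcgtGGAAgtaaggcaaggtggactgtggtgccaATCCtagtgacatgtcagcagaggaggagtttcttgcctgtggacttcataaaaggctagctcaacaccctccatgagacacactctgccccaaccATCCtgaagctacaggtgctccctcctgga
The KRT8 window held 3 matches to GGAA and 2 to GGAT, with none to the 4 GATA sites. The KRT20 window held 4 matches to GGAA, 2 to GGAT and 1 to TGATAA, at 195 bases before the start. These letters are common: over 35116 promoters of the table, 95.5% held GGAA (median 3 matches), 76.5% held GGAT (median 1) and 25.0% held at least 1 of the 4 GATA sites (TGATAA alone 7.53%). The closest peaks to KRT20 lay 16.5 kb (GATA6) and 17.7 kb (SPDEF) from the gene. The peaks are on hg19 and the sequences on GRCh38.p14, so no match was placed in or out of a peak. In the RefSeq table the annotated span of KRT8 runs on to overlap that of KRT18. The KRT8 start of the promoter table lies inside that span, farther from the far end of the gene than the whole length of the KRT8 span used here. It is thus another start than the one from which distances to KRT8 are given below, and how near a peak lies to it was not examined.

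GATA6 peaks lay within 30 kb of all 6 genes and SPDEF peaks within 30 kb of 5, all but KRT7. Since gene ends were given to the nearest kb, distances to genes below hold to about 1 kb. By the spans used, GATA6 had a peak within 2 kb of a gene or inside it at 5 genes (all but KRT20) and SPDEF at 3 (KRT80, KRT18 and KRT19). By the longer RefSeq span of KRT8, SPDEF peaks may lie inside KRT8 too. The genes are 5 to 24 kb long (median 9.5 kb). Of all 10 kb tiles of chromosomes 1 to 22 and X, 4.03% held a GATA6 peak or lay within 2 kb of one, and 1.08% did for SPDEF; these tiles include gene-poor sequence and assembly gaps and are not genes. An SPDEF peak overlapping a GATA6 peak (at least 1 bp shared) stood near 5 genes, again all but KRT7, and 3.27% of the 70 kb tiles held such an overlap. The SPDEF peaks and overlaps near KRT8 also counted for KRT18. With the direction of transcription of each gene (given by RefSeq for KRT8 and KRT20, common knowledge for the others), only 1 SPDEF and 1 GATA6 peak lay beyond a gene's far end. Those were the neighbouring peaks downstream of KRT80. The other peaks lay upstream of a gene, across its start or inside it. KRT80 and KRT7 have their starts facing each other, as do KRT8 and KRT18, so every peak between such a pair counted as upstream. The placement was not compared with that at other genes.

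**Figure D1:**
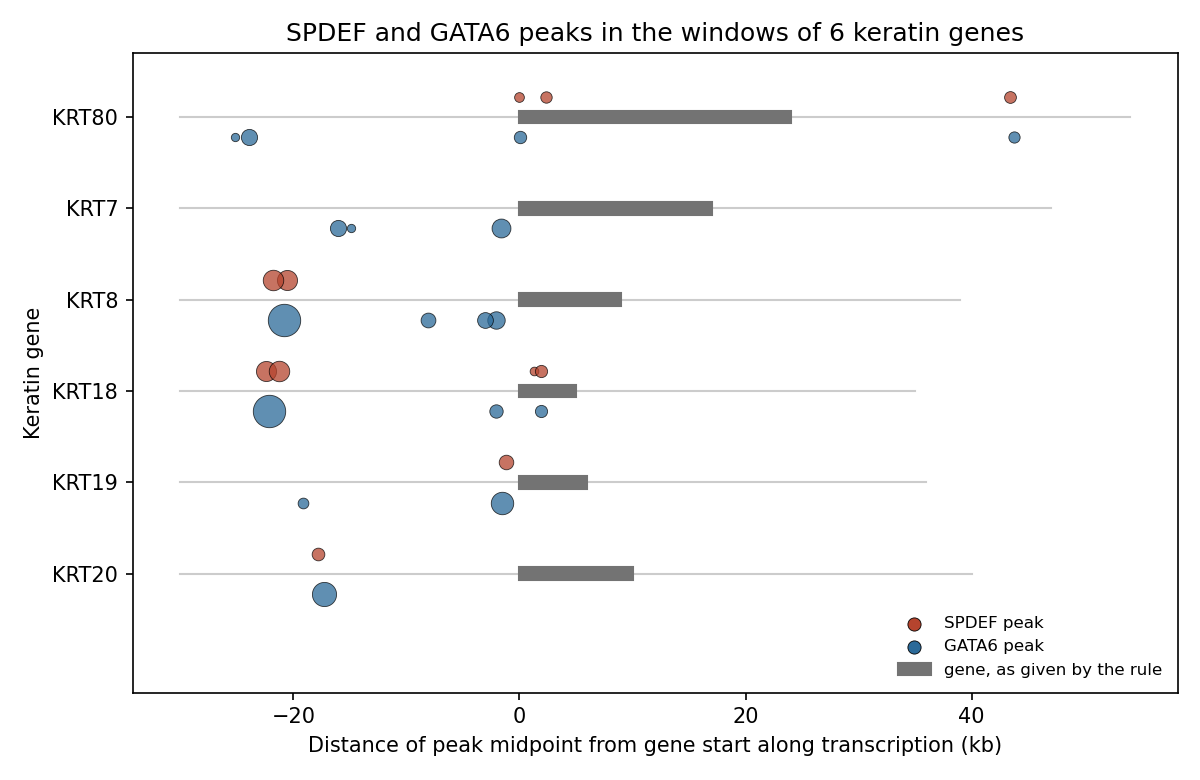
Each row is a gene, with its span as a grey bar, the window as a line and the distance of each peak's midpoint from the gene start, along transcription, in kb on the horizontal axis. SPDEF peaks (red) are above the line, GATA6 peaks (blue) below, and the area of a circle grows with peak width. The 3 peaks in the window of KRT7 are all GATA6 peaks, and the peaks 20 to 23 kb upstream of KRT8 and of KRT18 are the same peaks, shown in both rows.

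KRT8 and KRT18, whose chains pair in simple epithelia, lie 43 kb apart by the spans used here, with their starts facing each other, and the stretch between held most of their peaks. RefSeq (GRCh38.p14) annotates a longer KRT8, which reaches into KRT18. Peaks called upstream of KRT8 below are thus upstream of the shorter span only. They may lie inside the longer one or at the other KRT8 start, whose hg19 position was not examined. A pair of SPDEF peaks lay near the middle, at 53319119 to 53320091 (973 bp) and 53320253 to 53321269 (1017 bp) of chromosome 12, 161 bp apart. They stood 20.1 and 21.3 kb upstream of KRT8 and 21.9 and 20.7 kb upstream of KRT18, so each counted for both genes. In width they ranked 70 and 60 of the 2775 SPDEF peaks. Under both lay 1 GATA6 peak of 2763 bp (53318477 to 53321239), which ranked 9 of 10670 and covered all of the former and 987 bases of the latter. Only 0.956% of GATA6 peaks overlapped 2 or more SPDEF peaks, while 22.7% of SPDEF peaks had another SPDEF peak within 1 kb. These 3 peaks were the widest of their lists near the 6 genes.

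Nearer to KRT8 only GATA6 peaks were listed. They lay upstream of the gene at distances of 1.72 kb (697 bp wide), 2.81 kb (546 bp) and 7.82 kb (461 bp), and the closest SPDEF peak was 11.8 kb away from the last of them. On the KRT18 side a GATA6 peak of 352 bp lay 1.86 kb upstream of the gene, 3.12 kb from any SPDEF peak. By the spans used, KRT18 itself was the one gene of the 6 with an SPDEF and GATA6 overlap wholly inside its span. The overlap at the KRT80 start passed the gene end by less than the 1 kb precision, so it may lie inside too. By the longer RefSeq span of KRT8, the overlaps upstream of KRT8 may also lie inside that gene. Inside KRT18 an SPDEF peak of 271 bp (53343776 to 53344046) shared 242 bases with a GATA6 peak of 270 bp (53343748 to 53344017), their midpoints 28.5 bp apart. A narrow SPDEF peak of 66 bp (53343262 to 53343327; 97.0% of its list was at least as wide) lay 448 bp before it and did not overlap a GATA6 peak. Whether these fall in an exon or an intron was not examined, since the gene table is of another build.

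**Figure D2:**
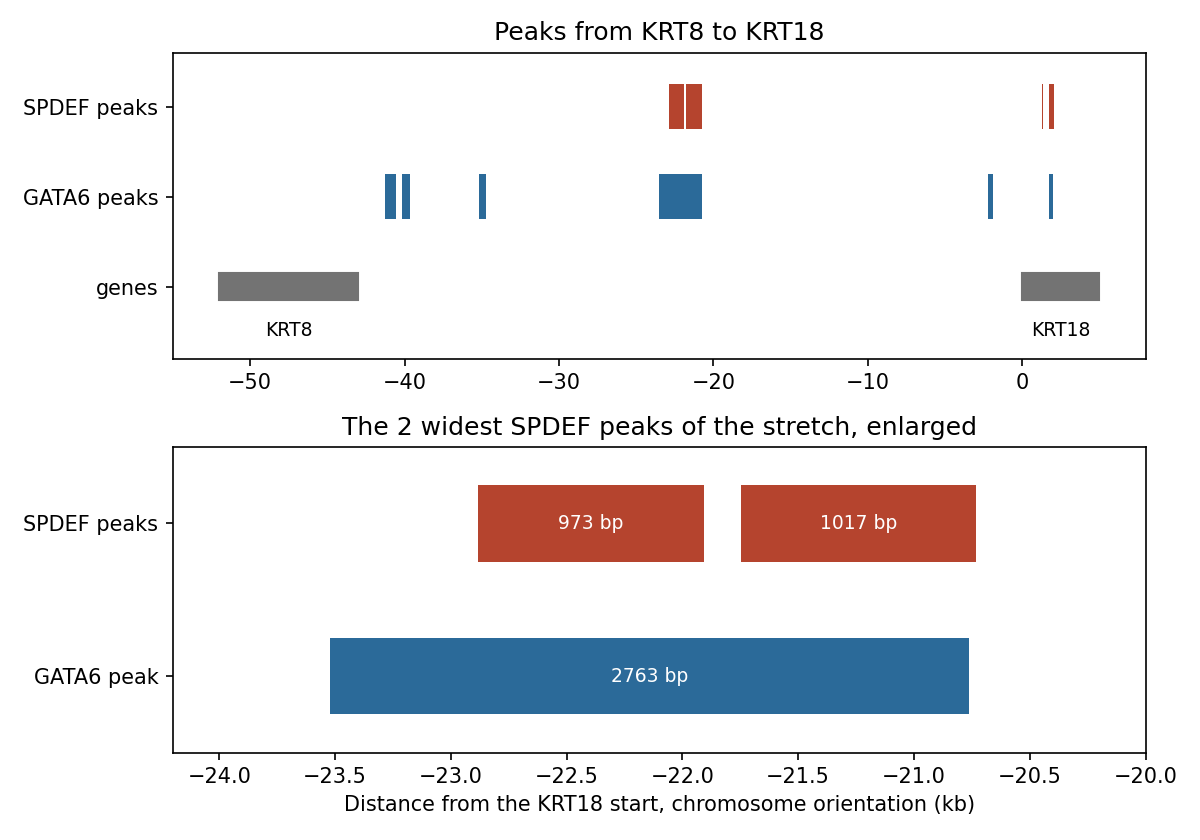
Peaks of both lists (red, SPDEF; blue, GATA6) and the genes (grey), by distance in kb from the KRT18 start in chromosome orientation, with the widths drawn to scale. The lower panel enlarges the SPDEF peaks of 973 and 1017 bp, which lie over the GATA6 peak of 2763 bp.

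KRT19, the type I keratin of ducts, had a single SPDEF peak, 0.974 kb upstream (chromosome 17, 39685975 to 39686417, 443 bp). It lay wholly within a GATA6 peak of 1251 bp (39685938 to 39687188) that began 0.937 kb upstream of the gene. Only 4.40% of GATA6 peaks were as wide as the latter. A second GATA6 peak in the window, of 176 bp and 19.0 kb upstream, had its closest SPDEF peak 17.6 kb away. In the order of RefSeq genes this second peak is on the side of KRT9, the next gene.

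KRT20, the gastric and intestinal keratin, had 1 peak of each list in its window and none close to it. The SPDEF peak (39059674 to 39059975, 302 bp) lay 17.7 kb upstream, wholly within a GATA6 peak of 1475 bp (39058525 to 39059999). Only 2.35% of GATA6 peaks were as wide. The midpoints were 562.5 bp apart, the SPDEF peak sitting at the end of the GATA6 peak farther from KRT20. This pair is on the side of KRT23, the next gene in RefSeq order, and its target gene was not examined.

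KRT80 had 3 SPDEF and 4 GATA6 peaks in its window. At its start a narrow SPDEF peak of 120 bp (chromosome 12, 52585990 to 52586109) lay wholly within a GATA6 peak of 283 bp (52585831 to 52586113), with 77.5 bp between midpoints. An SPDEF peak of 216 bp lay inside the gene, 2.25 kb from the former, without a GATA6 peak. Past the far end of the gene, 19.2 kb downstream, an SPDEF peak of 242 bp (52542514 to 52542755) stood 123 bp from a GATA6 peak of 208 bp (52542183 to 52542390) without touching it. All 3 SPDEF peaks were narrower than the median of their list, 268 bp.

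KRT7, the type II keratin of ducts, stood apart in having no SPDEF peak in its window. Its 3 GATA6 peaks all lay upstream, in the stretch it shares with KRT80. The widest, 841 bp (52623957 to 52624797), lay 1.20 kb upstream of KRT7, and the others (583 and 49 bp) 15.8 and 14.8 kb upstream. The closest SPDEF peak on the upstream side was the one at the KRT80 start, 37.8 kb from the 841 bp peak. On the other side the closest SPDEF peak lay 31.4 kb downstream of KRT7, just outside the window, at 52674389 to 52674724 (336 bp). It shared 318 bases with a GATA6 peak of 318 bp, their midpoints 4 bp apart, and RefSeq order puts this site on the side of the hair keratin gene KRT86. With 1 list and no depth, a site below the peak threshold at KRT7 cannot be told apart from no binding.

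How often the factors shared a site near these genes was set beside the whole lists. Near the genes 6 of 9 SPDEF peaks touched GATA6 peaks (66.7%, 95% Wilson interval 35.4 to 87.9), against 64.7% of all SPDEF peaks. Of the 14 GATA6 peaks, 5 overlapped an SPDEF peak (35.7%, 16.3 to 61.2), against 16.1% of all GATA6 peaks. In the chromosome 12 windows 3 of 11 GATA6 peaks did (27.3%), close to the 23.1% of that chromosome outside the cluster. In the chromosome 17 windows 2 of 3 did, a larger share than outside that cluster. For SPDEF the shares were 57.1% of 7 peaks on chromosome 12, against 70.6%, and 100% of 2 peaks on chromosome 17, against 50.8%. Both shares over all 6 genes depended on the overlap rule. With at least 50% of both peaks covered, 11.1% of SPDEF peaks near the genes were shared, against 31.1% of the list, and 7.14% of GATA6 peaks, against 8.09%, from 1 overlap near the genes. Among the 3 SPDEF peaks without an overlap, 2 lay 123 and 420 bp from a GATA6 peak and the one inside KRT80 lay 2.09 kb away. Among the 9 GATA6 peaks without an overlap, the closest to an SPDEF peak was that downstream of KRT80 (123 bp), and the others were 3.12 to 37.8 kb away. All intervals cover counting error only.

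The width of the shared peaks was uneven. The 5 GATA6 peaks with an SPDEF overlap were 2763, 1475, 1251, 283 and 270 bp wide, and the 9 without were 49 to 841 bp wide. The 3 widest, upstream of KRT8 and KRT18, KRT20 and KRT19, were in the widest 5% of the GATA6 list, and those at the KRT80 start and in KRT18 were below the list's median of 346 bp. The 6 SPDEF peaks with a GATA6 overlap were 120 to 1017 bp wide and the 3 without 66 to 242 bp. The medians were 271 bp over the 9 SPDEF peaks, beside 268 bp over the list, and 503.5 bp over the 14 GATA6 peaks, beside 346 bp. A wide peak is more likely to be touched by another, whatever the reason for its width.

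**Figure D3:**
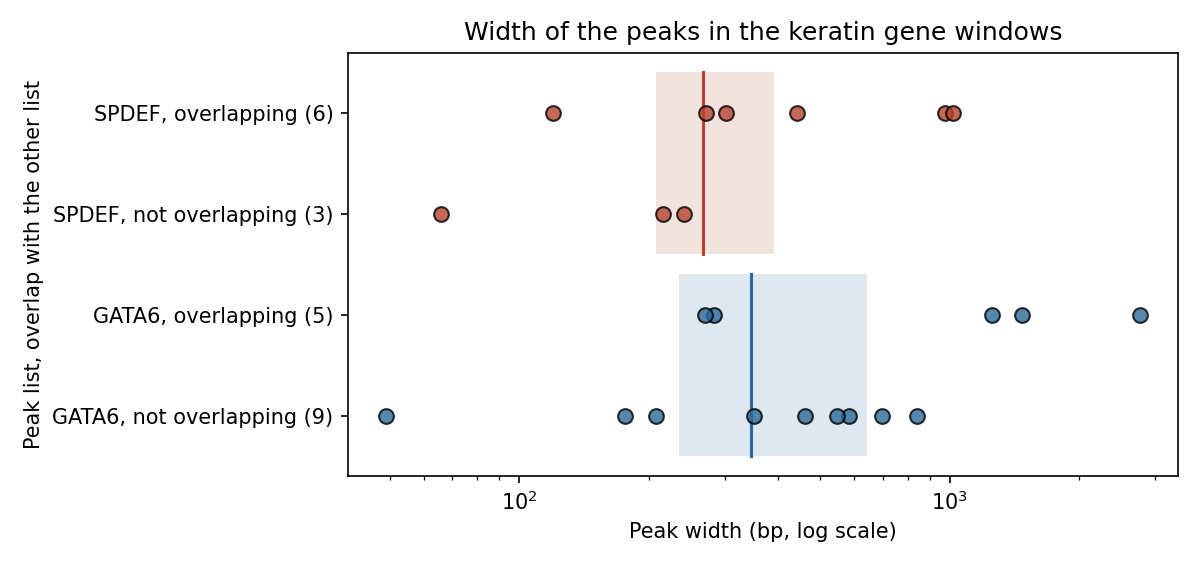
Width of each peak in the gene windows (bp, log scale), in rows by list and by overlap with the other list, with the number of peaks in brackets. Lines and shaded bands give the median and quartiles of the whole list (268 bp, 208 to 391 for SPDEF; 346 bp, 235 to 641 for GATA6). The 3 GATA6 points from 1251 bp up are all in the overlapping row.

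The gene windows, merged where they overlap, covered 0.394 of the 1.9 Mb of the 2 clusters. They held 22.8 SPDEF peaks per Mb, against 1.33 in the rest of the clusters, a ratio of 17.2 (exact 95% interval 3.56 to 164, from 9 and 2 peaks). A further SPDEF peak, at 53400022 to 53400547, lay just past the 53400 kb bound of the chromosome 12 cluster and was not counted. Counting it in the rest would lower the SPDEF ratios against the rest. For GATA6 the densities were 35.5 and 3.98 per Mb, a ratio of 8.92 (3.22 to 28.3, from 14 and 6 peaks). Within chromosome 12 alone the SPDEF ratio was lower, 8.71 (1.66 to 85.9, from 7 and 2 peaks). The GATA6 ratio there was 6.84 (2.03 to 29.5, from 11 and 4 peaks). Within chromosome 17 alone the GATA6 ratio was 9.53 (3 and 2 peaks), and the rest held 0 SPDEF peaks. Chromosomes 1 to 22 and X as a whole had 0.912 SPDEF and 3.51 GATA6 peaks per Mb. Against these the rest of the clusters had ratios of 1.46 (0.176 to 5.27, from 2 peaks) and 1.13 (0.416 to 2.47). That rest was uneven, with 3.12 SPDEF and 6.23 GATA6 peaks per Mb on chromosome 12 and 0 and 2.31 on chromosome 17. Peaks lie in groups and are not independent, so these intervals are too narrow. Over both clusters, counting SPDEF peaks within 1 kb of each other as 1 left 7 against 2, a ratio of 13.4. Leaving out KRT8 and KRT18 left 5 against 2, a ratio of 13.6.

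Chromosome 12 carried many peaks outside the keratins too. It had 2.46 SPDEF and 7.03 GATA6 peaks per Mb beyond the cluster, and 11.0% and 26.4% of its 70 kb tiles held a peak of each list. The windows of KRT80, KRT7, KRT8 and KRT18 had 27.1 SPDEF and 42.6 GATA6 peaks per Mb, 11.0 times (4.40 to 23.0) and 6.06 times (3.02 to 10.9) the density of that chromosome. Chromosome 17 had 0.736 SPDEF and 2.99 GATA6 peaks per Mb beyond its cluster, with a peak in 4.49% and 14.9% of its tiles. Both windows there, of KRT19 and KRT20, held a peak of each list. The copy number of these regions in HPAF-II was not examined, and its part in the densities was not tested. Of all 70 kb tiles, 1.07% held 2 or more SPDEF peaks, as the windows of KRT80, KRT8 and KRT18 did. The 2 in the KRT8 window are also in that of KRT18, so these windows are not separate cases.

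**Figure D4:**
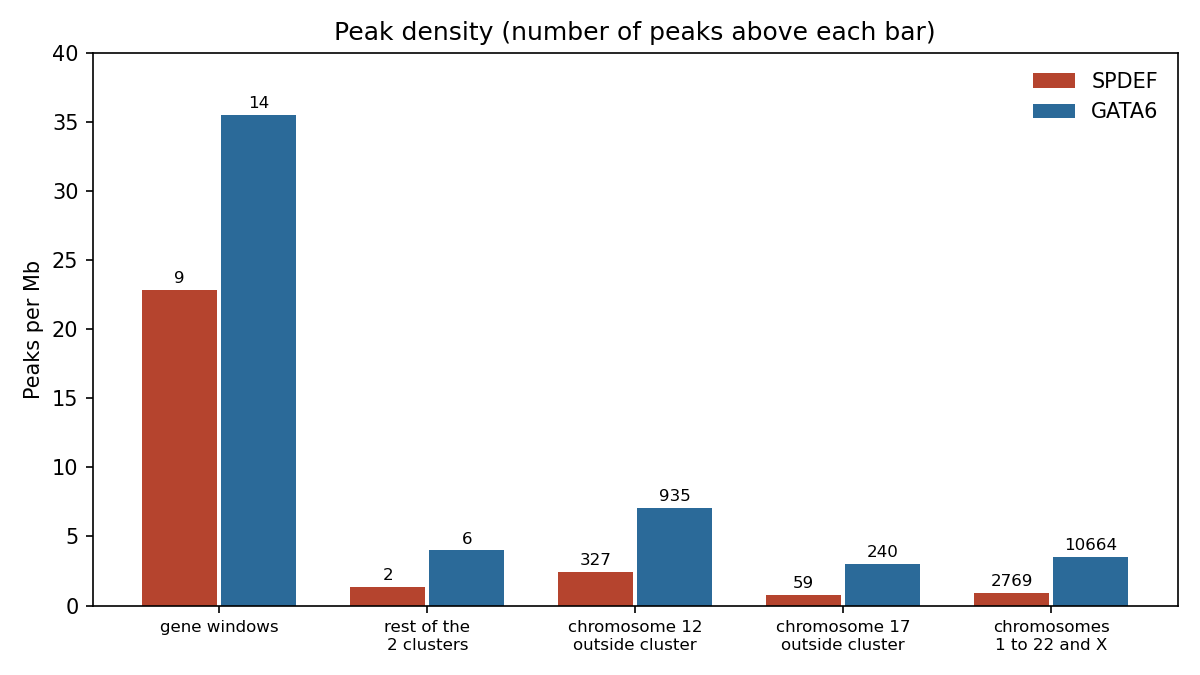
Peaks per Mb of SPDEF (red) and GATA6 (blue) in the merged windows of the 6 genes, the rest of the 2 keratin clusters, the rest of chromosomes 12 and 17, and chromosomes 1 to 22 and X, with the number of peaks above each bar. The gene windows reach 22.8 and 35.5 per Mb, and no other bar passes 7.03.

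Between the windows of KRT7 and KRT8 lay 587 kb with 2 SPDEF and 2 GATA6 peaks. In RefSeq order this side of the cluster holds 23 keratin genes between KRT7 and KRT8, the epidermal and stratified keratins KRT5, KRT6A, KRT6B, KRT6C, KRT1, KRT2 and KRT4 and hair keratins such as KRT81 and KRT86 among them. Its widest peaks were an SPDEF peak of 734 bp (52740606 to 52741339) whose closest GATA6 peak was 65.9 kb away and a GATA6 peak of 796 bp (52834815 to 52835610) whose closest SPDEF peak was 93.5 kb away. From there to the peaks upstream of KRT8, 465 kb held no GATA6 peak and 578 kb no SPDEF peak. The remaining GATA6 peaks of the chromosome 12 cluster, of 296 and 247 bp, lay past KRT18.

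Between the windows of KRT20 and KRT19 lay 577 kb with 0 SPDEF peaks and 2 narrow GATA6 peaks, of 191 and 92 bp, 224 bp apart. RefSeq places 14 keratin genes and 34 keratin-associated protein genes, which encode matrix proteins of hair, between KRT20 and KRT19. From the pair upstream of KRT20 to that upstream of KRT19 no SPDEF peak was listed for 626 kb, and from the 92 bp peak on no GATA6 peak for 592 kb. In RefSeq order KRT14, KRT16 and KRT17, keratins of stratified epithelia, lie beyond KRT19 and KRT9. From the end of the KRT19 window to 39800 kb neither list held a peak. The densities are of peaks per length, and the chromatin state of these stretches in HPAF-II was not analysed here.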

How the data were processed

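CUT&RUN peak lists of SPDEF and GATA6 in HPAF-II cells were used as deposited by the authors: each gives chromosome, start and end in bp on hg19 and no other value, score or depth. Per the submitters' processing notes, MACS2 2.2.7.1, deepTools, Bowtie2 2.4.4 and SAMtools 1.14 were used. Their settings, the control, the threshold and whether the 3 libraries of a target were pooled are not given in the sources used here. Lists were assigned to targets by name.

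Peaks were counted in windows of 30 kb around the genes, an overlap being at least 1 bp, with numpy 2.4.6 and scipy 1.17.1 in Python 3.11.15; plots used matplotlib 3.10.9. Shares carry 95% Wilson intervals and density ratios exact 95% binomial intervals. Chromosome lengths came from GenomeInfoDb. Overlap counting was tested on simulated data. The genes, windows and lists were chosen with earlier results of these data known. All 6 genes and every peak in their windows were named, and of the rest of the clusters the widest peaks; the site beside KRT86, the narrower peaks past KRT18 and those between KRT20 and KRT19 were named after their values were seen. Gene order came from RefSeq (GRCh38.p14), with no coordinates moved between builds. Positions count from 1.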

Additional observations from a re-analysis of the deposited data

How the results depend on the processing

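Over the alternatives run, the gene windows stayed denser than the rest of the clusters for both lists. The SPDEF ratio ranged from 7.46 (10 kb from the gene) to 24.3 (50 kb) and the GATA6 ratio from 5.97 (10 kb) to 34.4 (the wider 50% of the list, 9 against 1 peaks). No SPDEF ratio could be given for chromosome 17 alone, whose rest held 0 SPDEF peaks. Within 10 kb the counts were 5 SPDEF and 8 GATA6 peaks, and with the wider 50% of each list 5 and 9. Widening or narrowing the windows by 1 kb on each side, the precision of the gene ends, left 9 SPDEF and 14 GATA6 peaks. The bounds of the clusters were not varied. With at least 50% of both peaks covered, 11.1% of SPDEF and 7.14% of GATA6 peaks near the genes were shared (1 overlap, inside KRT18), as given beside the result. With midpoints within 1 kb, 88.9% of SPDEF peaks near the genes were shared, against 70.1% of the list. For GATA6 these shares were 42.9% and 18.2%. At KRT7 3 SPDEF peaks came within 50 kb. Dropping the KRT8 and KRT18 windows and joining peaks within 1 kb were chosen after seeing the data. Without a score, depth or replicate values, weak sites and counting error are the limits.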
